A study of Mus musculus with 31 samples.

Results

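The genes described here are 10 Oas and Ifit antiviral effectors of the mouse: Oas1a, Oas1g, Oas2, Oas3, Oasl1 and Oasl2 of the oligoadenylate synthetase family, and Ifit1, Ifit2, Ifit3 and Ifit3b of the family of interferon-induced proteins with tetratricopeptide repeats. They were taken by name, with Ensembl IDs mapped to symbols by GENCODE vM21, and each has 1 gene ID in both count tables, out of 35275 gene IDs in the insulin experiment and 54532 in the ERRα3SA experiment. Another 8 Oas and Ifit genes, Oas1b, Oas1c, Oas1d, Oas1e, Oas1f, Oas1h, Ifit1bl1 and Ifit1bl2, were kept apart as relatives.

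The study holds 31 RNA-seq libraries of mouse tissue in 8 groups, from C57BL/6N males aged 2 to 3 months. In the insulin experiment, 15 livers came from wild-type mice or ERRα-/- mice, a global null for the nuclear receptor gene Esrra, after a 12 h fast and an intraperitoneal dose of saline or of insulin at 1 unit/kg, with the liver taken 4 h after injection (4 samples a group, 3 for ERRα-/- with insulin). In the ERRα3SA experiment, 4 livers and 4 muscles (gastrocnemius and soleus) each came from wild-type littermates and from ERRα3SA mice, a CRISPR/Cas9 knock-in of the serine to alanine changes S19A, S22A and S26A in every tissue, and the labels give no treatment for these mice. Samples are named below by group and replicate number, and it is not stated if equal numbers in the tissues mean one mouse.

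Type I and type III interferons bind receptors that activate the kinases Jak1 and Tyk2, and a transcription complex that holds Stat2 and Irf9 then switches on interferon-stimulated genes. Many such genes keep a low basal level in healthy liver and muscle without infection. Oas enzymes bind double-stranded RNA and make 2′,5′-linked oligoadenylates, which set off the breakdown of cellular and viral RNA. Ifit proteins bind viral RNA or block its translation, Ifit1 by its grip on RNA whose cap lacks 2′-O methylation.

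Among the members, Oas1a and Oas1g are short synthetases of the Oas1 group, Oas2 and Oas3 are longer ones with repeated synthetase domains, and Oasl1 and Oasl2 carry ubiquitin-like domains. Oasl1 makes no oligoadenylate and is known to hold back translation of the Irf7 mRNA. Ifit3b is a close copy of Ifit3.

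The members lie on chromosomes 5 and 19 (build GRCm38). On chromosome 5 the Oas genes are Oas1a (ENSMUSG00000052776, chr5:120896256-120907521, minus strand), Oas1g (ENSMUSG00000066861, chr5:120876142-120887613, minus), Oas2 (ENSMUSG00000032690, chr5:120730333-120749853, minus) and Oas3 (ENSMUSG00000032661, chr5:120753098-120777661, minus). The like genes lie apart from them on the plus strand: Oasl1 (ENSMUSG00000041827, chr5:114923240-114937915) and Oasl2 (ENSMUSG00000029561, chr5:114896936-114912234). On chromosome 19, all on the plus strand, are Ifit1 (ENSMUSG00000034459, chr19:34640871-34650009), Ifit2 (ENSMUSG00000045932, chr19:34550694-34576419), Ifit3 (ENSMUSG00000074896, chr19:34583531-34588731) and Ifit3b (ENSMUSG00000062488, chr19:34607970-34613401).

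Some members share transcript sequence, so a read from the shared stretch cannot be told apart between the copies. Of the 100-base windows along its transcripts, Oas1a shares 40.9% with Oas1g, and Oas1g shares 31.3% with Oas1a. Ifit3 shares 31.7% of its windows with Ifit3b, Ifit3b 27.4% with Ifit3, and Ifit1 3.29% with its relative Ifit1bl2. Oas2, Oas3, Oasl1, Oasl2 and Ifit2 share no such window with another gene, and the values of the copies are read with this in mind.

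Because most members move together in ERRα3SA liver, as described below, their promoters were searched for the core of the interferon-stimulated response element, GAAANNGAAA, and for the ERR response element TNAAGGTCA, each on both strands. The RefSeq table (GRCm38.p6) holds windows of 300 bases, 250 before and 50 after a start, for 9 members, all but Oas2, with 2 windows for Ifit2 and 1 for each of the others. Matches to GAAANNGAAA lie in 6 of the 10 windows, against 3.44% of all 32851 windows, and so in 6 of the 9 genes, against 3.99% of 27025 genes: 2 matches each in Oas1a, Oas1g, Ifit1, Ifit3 and Ifit3b and 1 in Oas3. TNAAGGTCA is found in 0 of the 10 windows by this exact search, against 1.28% of all windows. A match is a description of letters and not a site shown to be bound. The 60-base stretches that hold the matches are printed 5′ to 3′ on the gene's strand, with the matches in capitals (in the Ifit genes they are the reverse complement of the element, and the matches in Oas1a and in Oas1g overlap).
Oas1a: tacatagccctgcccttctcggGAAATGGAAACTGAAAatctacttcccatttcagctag
Oas1g: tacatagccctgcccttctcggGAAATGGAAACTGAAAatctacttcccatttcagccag
Oas3: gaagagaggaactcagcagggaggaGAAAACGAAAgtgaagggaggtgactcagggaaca
Ifit1: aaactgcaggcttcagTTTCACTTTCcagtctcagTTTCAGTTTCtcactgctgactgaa
Ifit3: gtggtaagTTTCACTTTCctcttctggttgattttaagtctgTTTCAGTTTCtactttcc
Ifit3b: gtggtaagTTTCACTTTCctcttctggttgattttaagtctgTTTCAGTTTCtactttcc

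These stretches lie at chr5:120907508-120907567, chr5:120887594-120887653 and chr5:120777700-120777759 (minus strand) and at chr19:34640769-34640828, chr19:34583365-34583424 and chr19:34607761-34607820 (plus strand). In Oas1a the matches begin 20 and 14 bases upstream of the start, in Oas1g 18 and 12, in Oas3 75, in Ifit1 104 and 85, in Ifit3 156 and 122, and in Ifit3b 188 and 154. The Oas1a and Oas1g stretches are identical at 59 of 60 bases and those of Ifit3 and Ifit3b at 60 of 60, so each pair shares its element as well as part of its transcript.

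Several libraries stand apart and are named before the results. ERRα3SA livers 1 and 2 carry the highest summed level of the members, 219, 212, 119 and 104 CPM (counts scaled to a common library size) in the 4 ERRα3SA livers against 80.9, 63.4, 127 and 69.1 in the wild-type livers. Among livers of the ERRα3SA experiment, ERRα3SA liver 4 has the highest sum of the 13 NF-κB and acute-phase genes, 3172, 3034, 2514 and 14904 CPM against 2746, 2890, 2617 and 3510 in wild-type livers, with Hp the most abundant. It also has the lowest sum of the 7 hepatocyte markers among livers of that experiment.

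ERRα3SA muscle 1 holds 19.3% mitochondrial counts, where the other muscles hold 9.15% to 10.8%, and has low Esrra, 24.3, 133, 127 and 94.6 CPM in the ERRα3SA muscles against 90.2, 82.7, 67.0 and 78.1 in wild type. ERRα3SA muscle 4 is high in the 12 macrophage markers, 93.4, 97.1, 97.7 and 407 CPM against 105, 109, 119 and 130, with Lyz2 the most abundant. It is also high in the 6 neutrophil markers, 1.13, 0.727, 0.550 and 20.2 CPM against 0.387, 3.08, 0.493 and 0.612, though Ly6g has 0 counts in every muscle.

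In the insulin experiment, wild-type insulin liver 2 has the fewest detected genes, 14507, 1.88% mitochondrial counts where the other livers of that experiment hold 3.14% to 4.82%, and the lowest mean of the members in its group. Wild-type insulin liver 3 holds 105 CPM of the 7 muscle markers. The tissues match their labels: hepatocyte markers sum to 64753 to 125811 CPM in livers and 8.09 to 18.7 CPM in muscles. Esrra is 1.63, 0.703, 1.15 and 1.04 CPM in ERRα-/- saline livers and 0.833, 0.576 and 0.298 in ERRα-/- insulin livers, against 32.3, 51.3, 42.7 and 40.5 and 53.7, 96.5, 56.1 and 59.0 in the wild-type livers with saline and with insulin.

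**Figure D1:**
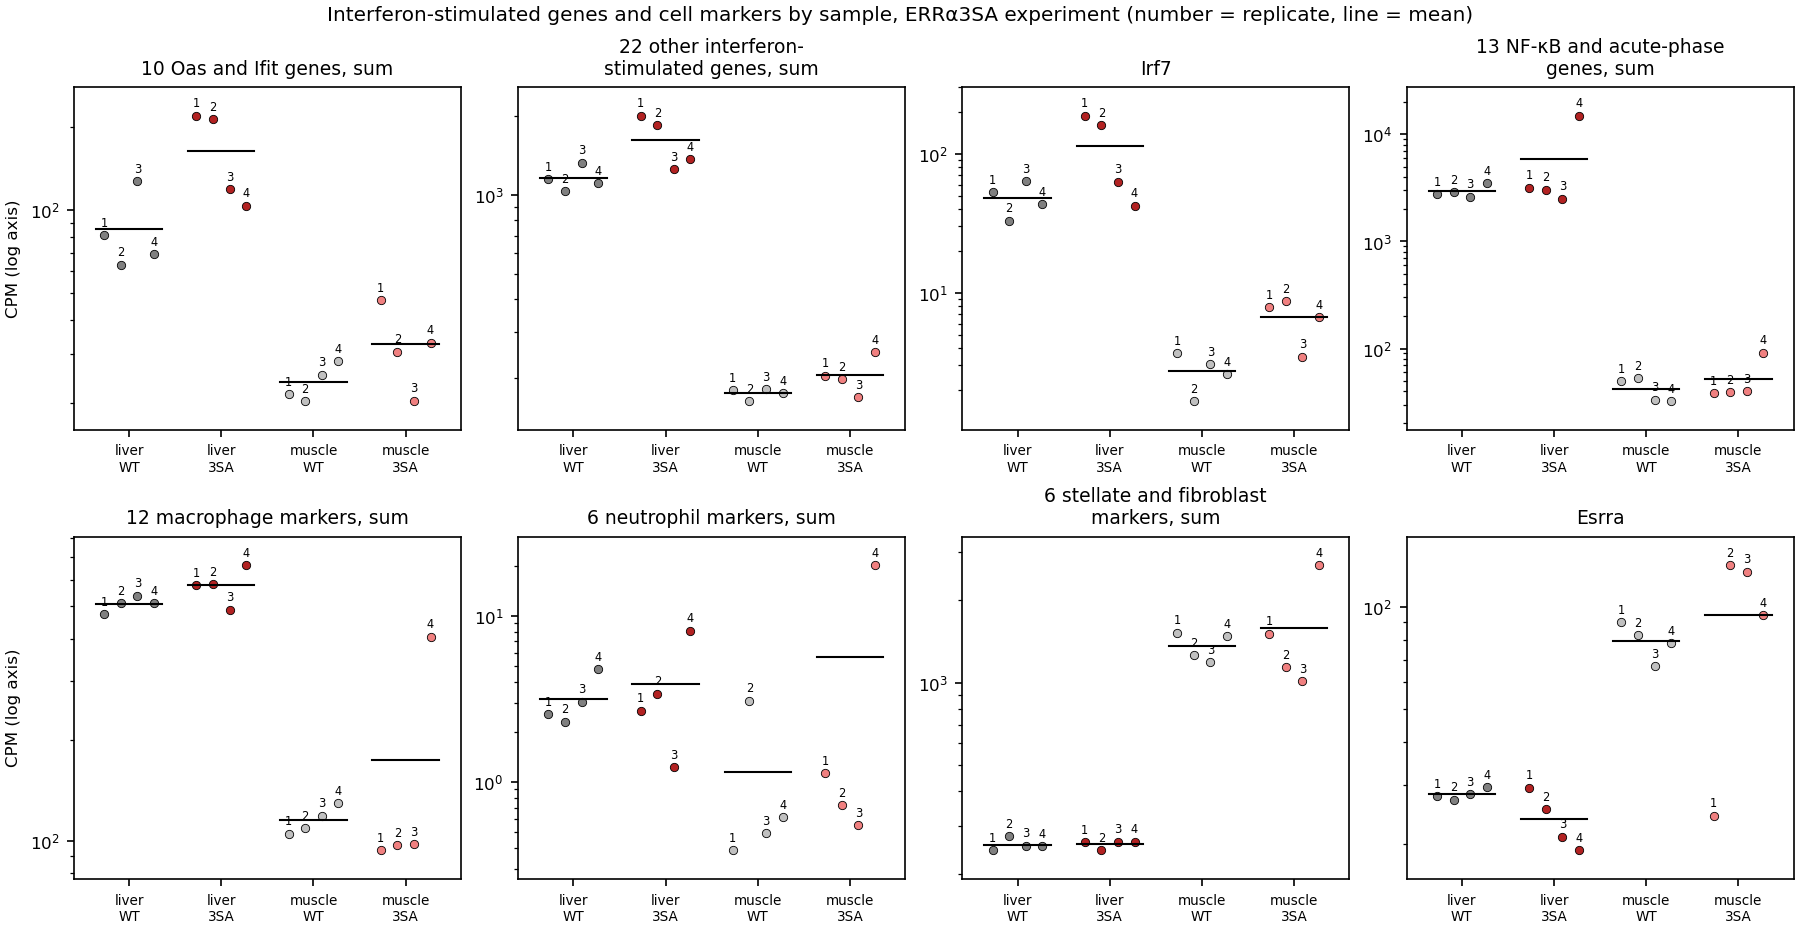
Summed CPM of the members, of other interferon-stimulated genes, of acute-phase genes and of cell type markers, with Irf7 and Esrra, in each of the 16 samples of the ERRα3SA experiment (log axis). It shows which libraries are high in the members and which in markers of other cells.

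In basal wild-type liver, Ifit3, Ifit1 and Oasl1 are the most abundant members per length, and Oas1g and the long synthetases Oas2 and Oas3 the least. In wild-type livers of the ERRα3SA experiment, mean levels in RPKM (CPM divided by gene length in kilobases, ± SD over 4 samples) run from Ifit3 at 11.4 ± 5.08, Oasl1 at 8.27 ± 1.83 and Ifit1 at 7.01 ± 3.73 through Oas1a at 2.68 ± 0.849, Ifit3b at 2.35 ± 1.29 and Ifit2 at 1.39 ± 0.371 to Oasl2 at 0.769 ± 0.0533, Oas1g at 0.504 ± 0.232, Oas2 at 0.486 ± 0.131 and Oas3 at 0.221 ± 0.0337. Neighbours in this order overlap between samples except at Ifit2 above Oasl2 and at Oas2 above Oas3. Wild-type saline livers of the other experiment keep nearly the same order at lower RPKM, led by Ifit3 at 4.76 ± 0.758, Ifit1 at 4.26 ± 1.85 and Oasl1 at 4.16 ± 0.762, then Ifit3b at 1.38 ± 0.570, Ifit2 at 1.05 ± 0.318 and Oas1a at 0.843 ± 0.337. Below them are Oasl2 at 0.386 ± 0.110, Oas2 at 0.309 ± 0.0898, Oas1g at 0.127 ± 0.0886 and Oas3 at 0.0877 ± 0.0516 RPKM. There every sample separates neighbours at Oasl1 above Ifit3b, Oas1a above Oasl2 and Oas2 above Oas1g. The 2 experiments were counted in separate tables with different numbers of genes, so their levels were not tested against each other.

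Wild-type muscle has another order. Ifit3b leads at 3.38 ± 0.871 RPKM (mean ± SD over 4 samples), followed by Ifit3 at 2.57 ± 0.558, Ifit2 at 1.12 ± 0.255, Ifit1 at 0.943 ± 0.118, Oasl2 at 0.492 ± 0.0896, Oas1a at 0.377 ± 0.121, Oas2 at 0.306 ± 0.0839, Oasl1 at 0.114 ± 0.0297, Oas1g at 0.0668 ± 0.0443 and Oas3 at 0.0105 ± 0.00962. Every sample separates neighbours only at Ifit3 above Ifit2, Ifit1 above Oasl2 and Oas2 above Oasl1. Oas3 has 0 counts in wild-type muscle 3, where 3 counts would be 0.114 CPM.

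**Figure D2:**
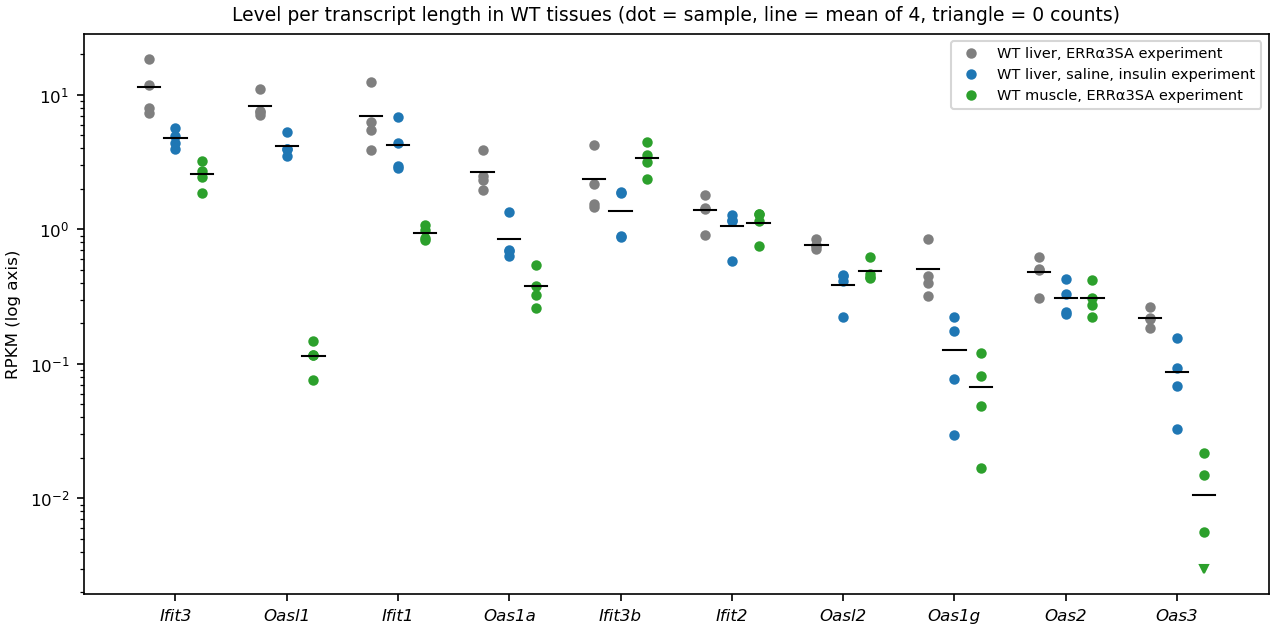
Level per length (RPKM, log axis) of each member in every wild-type liver, wild-type saline liver and wild-type muscle sample. It shows Ifit3 near the top in each, and Oasl1 high in liver and low in muscle.

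Wild-type liver holds far more of most members than wild-type muscle. Oasl1 is 19.4, 18.4, 28.7 and 19.9 CPM in wild-type livers 1 to 4 and 0.387, 0.198, 0.303 and 0.306 CPM in wild-type muscles. Oas3 is 1.88, 1.31, 1.54 and 1.52 CPM against 0.105, 0.0395, 0 and 0.153, and Ifit1 is 16.6, 10.4, 33.0 and 14.6 against 2.29, 2.21, 2.88 and 2.64. No liver sample falls as low as any muscle sample for these 3 genes. The log2 fold changes, given throughout with their standard error from edgeR, are 2.86 ± 0.31 for Ifit1, 2.79 ± 0.27 for Oas1a and 2.11 ± 0.27 for Ifit3. Oasl1, Oas3 and Oas1g have 5 to 11, 0 to 4 and 1 to 8 counts in the wild-type muscles and pass the filter on low counts only through liver, so their differences are given as lower bounds. The lowest liver value over the highest muscle value is a log2 ratio of 5.57 for Oasl1, 3.10 for Oas3 and 1.42 for Oas1g.

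Smaller differences were found for Oas2 at 0.62 ± 0.26 (unadjusted p = 0.0320, adjusted p = 0.0374) and Oasl2 at 0.61 ± 0.15 (unadjusted p = 0.00152). Ifit2 at 0.28 ± 0.21 (unadjusted p = 0.211) and Ifit3b at -0.56 ± 0.29 (unadjusted p = 0.0795) were not called, and for Ifit3b muscle samples range from 4.71 to 8.91 CPM against 2.93 to 8.45 CPM in liver. A gene is called where its unadjusted p is below 0.05 and its fold change at least 1.2 in either direction. By this rule 8 of 10 members were called, all 8 higher in liver and 3 of them the genes with few muscle counts, while 84.2% of all genes tested were called between the tissues and 42.2% were higher in liver. Given that background, the called share says little of the members, and the sizes and the change of order carry the description. Oas2 lost its call without wild-type liver 2 (0.49 at unadjusted p = 0.0979), liver 4 (0.61 at unadjusted p = 0.0506), muscle 1 (0.59 at unadjusted p = 0.0693), muscle 2 (0.49 at unadjusted p = 0.0923) or muscle 3 (0.65 at unadjusted p = 0.0523), and with all 4 groups in one fit neither Oas2 (0.66 at unadjusted p = 0.0596) nor Oasl2 (0.65 at unadjusted p = 0.0829) was called. With no filter on low counts Ifit3b was called lower in liver (-0.56 at unadjusted p = 0.00530).

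Much of the wider interferon system is higher in liver as well, though not its receptors as a group. Stat2 and Irf9, which carry the interferon signal to the promoters, were higher in liver at 3.61 ± 0.10 and 2.62 ± 0.10, and so were 19 of 22 other interferon-stimulated genes, 8 of 10 nucleic acid sensors and 5 of 6 feedback genes, with 1 sensor (Tmem173) and 1 feedback gene (Socs1) lower. The transcription factor Irf7 was higher in liver by 4.09 ± 0.23, and Usp18 by 2.72 ± 0.35, while Esrra was lower in liver at -1.53 ± 0.08. Of the receptor and Janus kinase genes 3 of 8 were higher in liver (Ifnar2 at 3.09 ± 0.10, Ifnar1 at 1.57 ± 0.08 and Tyk2 at 1.63 ± 0.09) and 3 of 8 lower (Jak2 at -1.95 ± 0.09, Ifngr2 at -1.88 ± 0.08 and Jak1 at -0.69 ± 0.06), with a median of -0.05. Macrophage markers were higher in liver for 11 of 12 genes, and their part in these differences was not tested. In bulk tissue, more cells of a type and more RNA per cell cannot be told apart, here and below.

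In ERRα3SA liver, 9 of the 10 members rose. The Oas1 genes were the strongest, with log2 fold changes of 2.38 ± 0.64 for Oas1g and 1.70 ± 0.47 for Oas1a, followed by 1.42 ± 0.38 for Oasl2 and 1.01 ± 0.25 for Oas3 (4 livers a group). The Ifit genes rose by 0.76 ± 0.22 to 0.90 ± 0.33, Oasl1 by 0.64 ± 0.18, and Oas2 at 0.42 ± 0.23 was the one member not called. For most members the rise was steep in ERRα3SA livers 1 and 2 and small or absent in livers 3 and 4.

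Oas1a, a double-stranded RNA sensor that makes oligoadenylates, was 30.4, 21.0, 6.81 and 7.17 CPM in ERRα3SA livers 1 to 4 and 4.69, 3.73, 7.37 and 4.42 CPM in wild-type livers. Livers 1 and 2 stand above every wild-type liver, and livers 3 and 4 lie just below wild-type liver 3. Its neighbour and copy Oas1g was 11.4, 9.30, 1.52 and 2.17 CPM against 1.05, 0.753, 1.97 and 0.937 CPM, with the same livers high and liver 3 inside the wild-type range. The tests gave 1.70 ± 0.47 (unadjusted p = 0.00519, adjusted p = 0.528) for Oas1a and 2.38 ± 0.64 (unadjusted p = 0.00420, adjusted p = 0.528) for Oas1g, where the adjusted p is Benjamini-Hochberg over all genes tested.

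The longer synthetases behaved otherwise. Oas3 was 3.01, 2.41, 2.5 and 4.67 CPM in ERRα3SA livers against 1.88, 1.31, 1.54 and 1.52 CPM in wild type, so every ERRα3SA liver is above every wild-type liver and liver 4, not 1 or 2, is the highest. Its log2 fold change was 1.01 ± 0.25 (unadjusted p = 0.00233, adjusted p = 0.517). Oas2 was 2.82, 3.35, 2.94 and 2.36 CPM against 1.37, 2.77, 2.23 and 2.28 CPM, with liver 4 inside the wild-type range and the others just above it, at 0.42 ± 0.23 (unadjusted p = 0.0956, adjusted p = 0.724).

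Transcripts of the Oas-like genes rose too. Oasl2 was 23.2, 16.2, 7.01 and 6.07 CPM in ERRα3SA livers and 5.36, 4.84, 4.54 and 4.87 CPM in wild type, the latter within a narrow band, so that all 4 ERRα3SA livers stand above it even where livers 3 and 4 add little. Oasl1, the restraint on Irf7 translation, was 38.0, 41.1, 29.7 and 25.2 CPM against 19.4, 18.4, 28.7 and 19.9 CPM, and only wild-type liver 3 reaches into the ERRα3SA range. The tests gave 1.42 ± 0.38 (unadjusted p = 0.00430, adjusted p = 0.528) for Oasl2 and 0.64 ± 0.18 (unadjusted p = 0.00563, adjusted p = 0.540) for Oasl1.

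Among the Ifit genes, Ifit3 was 47.4, 49.0, 30.3 and 21.1 CPM in ERRα3SA livers and 20.6, 12.8, 32.2 and 14.1 CPM in wild type. Ifit1 was 41.4, 45.3, 24.6 and 22.5 CPM against 16.6, 10.4, 33.0 and 14.6 CPM. For both genes wild-type liver 3 exceeds ERRα3SA livers 3 and 4, and only livers 1 and 2 exceed it. Ifit3b showed the same arrangement at lower values, 11.0, 12.7, 6.08 and 5.01 CPM against 4.37, 2.93, 8.45 and 3.08 CPM. Ifit2, which shares no transcript windows with the others, was 10.3, 11.9, 7.60 and 7.36 CPM against 5.62, 5.59, 7.12 and 3.57 CPM, and here every ERRα3SA liver is above every wild-type one. The tests gave 0.90 ± 0.33 (unadjusted p = 0.0227, adjusted p = 0.629) for Ifit3, 0.85 ± 0.35 (unadjusted p = 0.0365, adjusted p = 0.651) for Ifit1, 0.89 ± 0.39 (unadjusted p = 0.0459, adjusted p = 0.657) for Ifit3b and 0.76 ± 0.22 (unadjusted p = 0.00624, adjusted p = 0.563) for Ifit2.

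**Figure D3:**
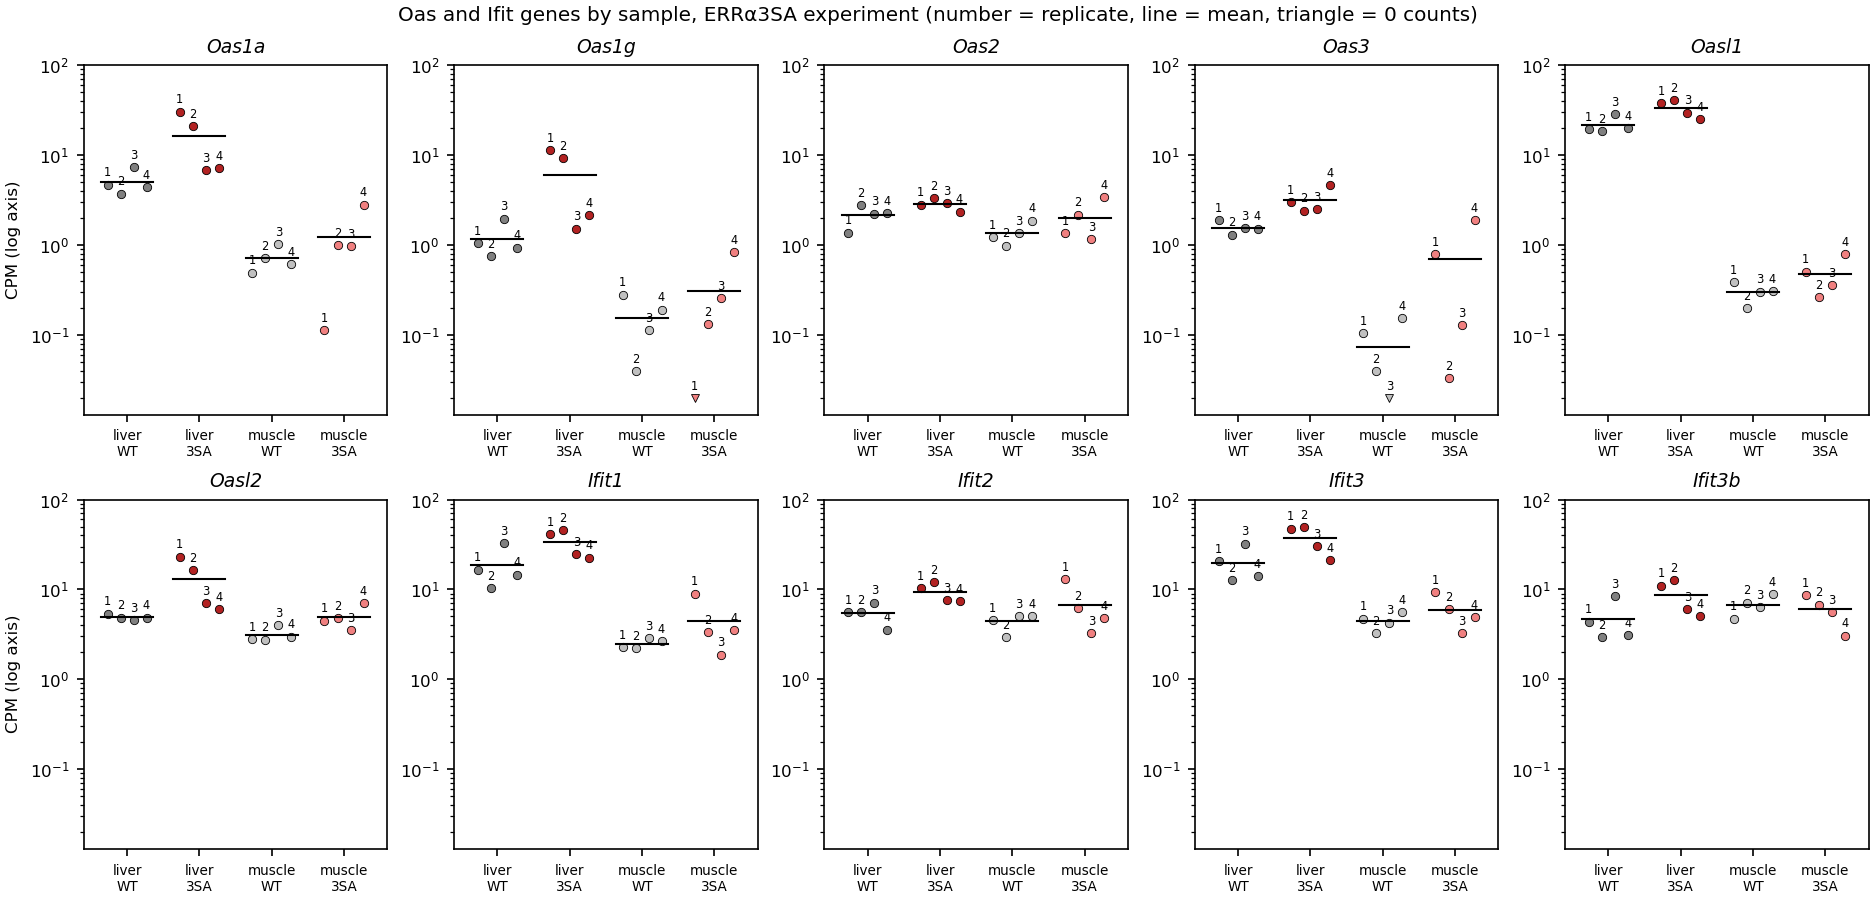
CPM of each member in every liver and muscle of the ERRα3SA experiment (log axis, replicate numbers beside the points, lines at group means). ERRα3SA livers 1 and 2 lead in most panels, while Oas3 is highest in liver 4.

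Of 13339 genes tested, 4.88% were called between ERRα3SA and wild-type liver and 2.5% were called higher, against 9 of 10 members, all higher. The members' median log2 fold change was 0.89 and that of all genes -0.00 (members 0.70 to 1.25 with 1 library left out). Every ERRα3SA liver was above every wild-type liver for 3 of 10 members (Oas3, Oasl2 and Ifit2) and for 2.31% of all genes. No gene reached an adjusted p below 0.05 in edgeR (0 of the 651 called at the unadjusted threshold), while DESeq2 gave 43 such genes, Oasl2 among them at adjusted p = 0.0348.

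The calls of Ifit1, Ifit3 and Ifit3b rest on single livers. Ifit1 went to 0.73 (unadjusted p = 0.0910) without ERRα3SA liver 1, 0.67 (unadjusted p = 0.108) without liver 2, and 0.79 (unadjusted p = 0.0819), 0.65 (unadjusted p = 0.0902) and 0.75 (unadjusted p = 0.0918) without wild-type livers 1, 2 and 4. Ifit3 went to 0.75 (unadjusted p = 0.0649) and 0.73 (unadjusted p = 0.0697) without ERRα3SA livers 1 and 2, and to 0.73 (unadjusted p = 0.0624) and 0.76 (unadjusted p = 0.0642) without wild-type livers 2 and 4, and Ifit3b to 0.76 (unadjusted p = 0.112), 0.65 (unadjusted p = 0.145), 0.85 (unadjusted p = 0.0925), 0.72 (unadjusted p = 0.115) and 0.74 (unadjusted p = 0.114) without ERRα3SA livers 1 and 2 and wild-type livers 1, 2 and 4 in turn. The Oas calls and that of Ifit2 held with each library left out: without ERRα3SA liver 1, Oas1a was at 1.21, Oas1g at 1.88 and Oasl2 at 1.00, and without liver 4 Oas3 was at 0.75. With all 4 groups of the experiment in one fit Oas3 was no longer called (1.00 at unadjusted p = 0.129).

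Other interferon-stimulated genes moved the same way in ERRα3SA liver. Of further such genes 17 of 22 rose (median 0.51), among them Parp14, Parp9 and Dtx3l, which act together in ADP-ribosylation and ubiquitination, at 0.55 ± 0.12 (unadjusted p = 0.00104), 0.42 ± 0.09 (unadjusted p = 0.00135) and 0.32 ± 0.07 (unadjusted p = 0.00162). Their summed level was 2006, 1852, 1257 and 1372 CPM in ERRα3SA livers and 1151, 1035, 1328 and 1112 CPM in wild type, again highest in livers 1 and 2. Of the nucleic acid sensors 7 of 11 rose (median 0.42), including the kinase Eif2ak2 at 0.48 ± 0.11 (unadjusted p = 0.00128), the ligase Trim25 at 0.27 ± 0.07 (unadjusted p = 0.00308) and the Z-form nucleic acid sensor Zbp1 at 1.2 ± 0.35 (unadjusted p = 0.00648).

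Upstream, Irf9 rose modestly, at 0.41 ± 0.11 (unadjusted p = 0.00497), while Stat2 at 0.19 ± 0.06 (unadjusted p = 0.0162) fell short of the fold threshold. Irf7, a transcription factor for interferon and interferon-stimulated genes, was 187, 161, 62.8 and 42.3 CPM in ERRα3SA livers and 53.1, 33.1, 63.8 and 43.2 CPM in wild type. Livers 1 and 2 are far above the rest, and livers 3 and 4 lie within the wild-type range. Irf7 rose by 1.23 ± 0.43 (unadjusted p = 0.0173), the one gene called of 8 interferon regulatory and NF-κB factors (median -0.03). Of the feedback genes 2 of 6 rose (median 0.65), Trim30a at 0.87 ± 0.20 (unadjusted p = 0.00153) and Usp18, a brake on interferon receptor signalling, at 0.84 ± 0.37 (unadjusted p = 0.0470).

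The receptors showed no such rise, and the ligands could not be tested. None of 21 interferon genes had enough counts to be tested, and 19 of 21, Ifnb1 among them, had 0 counts in all 31 samples, where 3 counts would be 0.0653 to 0.169 CPM. None of 8 receptor and Janus kinase genes tested was called (median 0.07): Ifnar1 was at 0.02 ± 0.08 (unadjusted p = 0.765) and Ifnar2 at 0.22 ± 0.07 (unadjusted p = 0.0138), below the fold threshold. Of the 8 relatives 3 had enough counts and none was called (median 0.40), and Esrra itself was at -0.24 ± 0.12 (unadjusted p = 0.0780).

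Genes of the interferon gamma response were called higher for 3 of 11 (median 0.42), with the GTPases Irgm1 at 0.53 ± 0.14 (unadjusted p = 0.00453), Igtp at 0.62 ± 0.22 (unadjusted p = 0.0187) and Iigp1 at 0.42 ± 0.16 (unadjusted p = 0.0249). The list as a whole was split, with 6 of 11 log2 fold changes above 0 and 5 below. Of the NF-κB and acute-phase genes 6 of 11 rose (median 0.85), including Nfkbia at 0.28 ± 0.08 (unadjusted p = 0.00529), Lcn2 at 4.13 ± 1.44 (unadjusted p = 0.0171) and Orm2 at 2.78 ± 0.99 (unadjusted p = 0.0189). The acute-phase sum is highest in liver 4 and the sum of the members in livers 1 and 2, so the same livers do not lead in both.

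Markers of some immune cells were read in the same livers, and not every such list is reported here. The 12 macrophage markers, all detected in every liver and led by Clec4f, summed to 579, 583, 489 and 665 CPM in ERRα3SA livers and 475, 511, 538 and 512 CPM in wild type, and 1 of 12 was called, Vsig4 at 0.29 ± 0.13 (unadjusted p = 0.0419), with 12 of 12 log2 fold changes above 0 (median 0.18). The 7 plasmacytoid dendritic markers summed to 11.8, 2.79, 2.30 and 1.40 CPM against 3.19, 1.59, 2.40 and 1.43 CPM, where the high value of liver 1 is Klk1 at 10.2 CPM and Siglech is 0.659, 0.708, 0.637 and 0.289 CPM in the ERRα3SA livers. The 10 T and NK cell markers, led by Cd4, summed to 3.72, 4.48, 4.12 and 7.27 CPM against 5.27, 4.52, 4.54 and 6.07 CPM. The part of these cells in the rise of the members was not tested.

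Neutrophil markers summed to 2.68, 3.40, 1.23 and 8.13 CPM against 2.55, 2.30, 3.04 and 4.78 CPM with Ly6g at 0 counts in every liver, and none of the 3 tested was called. One of 6 endothelial genes rose, Lyve1 at 0.44 ± 0.10 (unadjusted p = 0.00140). Of 6 stellate and fibroblast genes Lrat rose at 0.33 ± 0.10 (unadjusted p = 0.0101) and Pdgfrb fell at -0.39 ± 0.14 (unadjusted p = 0.0193). None of 7 hepatocyte markers was called (median -0.13).

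In ERRα3SA muscle the members were low and mostly not called. Oasl2 was the one gene that rose, by 0.69 ± 0.25, and 3 members, Oas1g, Oas3 and Oasl1, had too few counts to be tested. Higher values gathered in ERRα3SA muscles 1 and 4, each a library that stands apart, and no member had every ERRα3SA muscle above every wild-type one.

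Oasl2 was 4.50, 4.76, 3.50 and 7.07 CPM in ERRα3SA muscles 1 to 4 and 2.81, 2.77, 3.98 and 2.98 CPM in wild-type muscles. Muscle 4 is the highest, and ERRα3SA muscle 3 lies inside the wild-type range. The test gave 0.69 ± 0.25 (unadjusted p = 0.0203, adjusted p = 1.00). Ifit1 was 8.95, 3.34, 1.88 and 3.52 CPM against 2.29, 2.21, 2.88 and 2.64 CPM, and Ifit2 12.9, 6.15, 3.27 and 4.76 CPM against 4.54, 2.96, 5.08 and 5.08 CPM. Muscle 1, the library with high mitochondrial counts, leads for both, while muscle 3 is at or near the lowest wild-type value. They were at 0.83 ± 0.42 (unadjusted p = 0.0789) and 0.63 ± 0.39 (unadjusted p = 0.141), not called.

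Ifit3 was 9.29, 6.05, 3.27 and 4.96 CPM against 4.75, 3.28, 4.28 and 5.62 CPM, at 0.41 ± 0.31 (unadjusted p = 0.213). Ifit3b, the most abundant member per length in wild-type muscle, was 8.61, 6.77, 5.63 and 3.07 CPM against 4.71, 7.11, 6.33 and 8.91 CPM, at -0.15 ± 0.30 (unadjusted p = 0.630), with ERRα3SA muscle 4 the lowest of all 8. Oas1a was 0.113, 0.991, 0.971 and 2.81 CPM against 0.492, 0.711, 1.02 and 0.612 CPM, at 0.86 ± 0.66 (unadjusted p = 0.226). For Oas1a and Oas2 muscle 4 is the highest, and Oas2 was 1.35, 2.18, 1.17 and 3.39 CPM against 1.23, 0.988, 1.36 and 1.87 CPM, at 0.61 ± 0.38 (unadjusted p = 0.141). Single libraries carry most of these values. Without ERRα3SA muscle 4, Oas1a was at 0.06, Oas2 at 0.23 and Ifit3b at 0.07. Without muscle 1, Ifit1 was at 0.26, Ifit2 at 0.13 and Ifit3 at 0.12.

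The untested members had few counts, with 0 to 4, 1 to 8 and 5 to 11 in the wild-type muscles for Oas3, Oas1g and Oasl1 and more in ERRα3SA muscle 4, at 59, 26 and 25. Oas3 was 0.788, 0.0330, 0.129 and 1.89 CPM in ERRα3SA muscles and 0.105, 0.0395, 0 and 0.153 CPM in wild type, so muscles 1 and 4 are above the wild-type range and muscles 2 and 3 within it. Oasl1 ranged from 0.264 to 0.799 CPM against 0.198 to 0.387 CPM, and Oas1g from 0 to 0.831 CPM against 0.0395 to 0.281 CPM, with 0 counts in ERRα3SA muscle 1, where 3 counts would be 0.169 CPM.

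By the rule 1 of 7 members tested was called, against 4.54% of 14081 genes called and 2.78% called higher. No member of 10 had every ERRα3SA muscle above every wild-type muscle, as 1.70% of all genes did. The members' median log2 fold change was 0.63 beside 0.02 for all genes, and with 1 library left out it ran from 0.26 (without ERRα3SA muscle 1) to 0.84 (without muscle 3). With all 4 groups of the experiment in one fit Oasl2 was not called (0.66 at unadjusted p = 0.0753), and with no filter on low counts Ifit1 was (0.80 at unadjusted p = 0.0487). Oas3 was called in both of these fits, on wild-type counts of 0 to 4, and no fold change is given for it. Oasl2 also lost its call without ERRα3SA muscle 4 (0.46 at unadjusted p = 0.0542), wild-type muscle 1 (0.65 at unadjusted p = 0.0522) or wild-type muscle 2 (0.64 at unadjusted p = 0.0536). A fit with replicate number as a block called 0 members, Oasl2 included (median of the members 0.49).

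Other interferon genes followed in part. Irf7 was 7.88, 8.72, 3.46 and 6.65 CPM in ERRα3SA muscles and 3.69, 1.66, 3.07 and 2.60 CPM in wild type and rose by 1.30 ± 0.33 (unadjusted p = 0.00288). Muscles 1, 2 and 4 of ERRα3SA are above every wild-type muscle, and muscle 3 is within their range. Of the other interferon-stimulated genes 3 of 20 rose (median 0.21): Rsad2 at 1.17 ± 0.26 (unadjusted p = 0.00128), Ifi44 at 0.97 ± 0.39 (unadjusted p = 0.0321) and Cmpk2 at 0.46 ± 0.20 (unadjusted p = 0.0478). None of 6 feedback genes, 11 sensors or 8 receptor and kinase genes was called. Stat2 was at 0.27 ± 0.18, Irf9 at 0.24 ± 0.17 and Usp18 at 0.08 ± 0.25, none of them called. One of 10 interferon gamma response genes fell, Igtp at -0.29 ± 0.13, and none of 5 acute-phase genes was called. Esrra was at 0.28 ± 0.41.

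None of the 8 macrophage markers tested was called (median 0.68), with Clec4f at 0 counts in every muscle of either genotype. Of the neutrophil markers Csf3r alone was tested and rose, at 2.76 ± 1.16 (unadjusted p = 0.0403). The high sums lie in muscle 4, which is also the highest of the muscles for all 6 Oas members, and their part in those values was not tested. The 6 fibroblast markers summed to 1510, 1138, 1011 and 2694 CPM in ERRα3SA muscles against 1524, 1259, 1191 and 1481 CPM in wild type.

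Fitting both tissues together tests whether the ERRα3SA effect itself differs between liver and muscle, and in the main fit by edgeR such a difference was called for no member. Oas1g, Oas3 and Oasl1 enter this fit only through liver, with 0 to 26, 0 to 59 and 5 to 25 counts in the muscles, and their differences are not read. Among the other members the differences (liver effect minus muscle effect, log2) were largest for Ifit3b at 1.06 ± 0.54 (unadjusted p = 0.0643), with Oasl2 at 0.76 ± 0.49 (unadjusted p = 0.139) and Oas1a at 0.85 ± 0.84 (unadjusted p = 0.326).

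The remaining members were at -0.17 ± 0.45 (unadjusted p = 0.718) for Oas2, 0.07 ± 0.59 (unadjusted p = 0.911) for Ifit1, 0.16 ± 0.48 (unadjusted p = 0.739) for Ifit2 and 0.52 ± 0.49 (unadjusted p = 0.299) for Ifit3. By edgeR 0 of 10 members were called, against 5.57% of 15688 genes, and DESeq2 called 1, Oas3, one of the 3 with few muscle counts. Ifit3b was called with no filter on low counts (1.04 at unadjusted p = 0.0388), as Oas3 was, and with replicate number as a block (1.13 at unadjusted p = 0.0241). None of 22 other interferon-stimulated genes and 12 sensors was called either (Irf7 -0.03 ± 0.56, Usp18 0.77 ± 0.48). Interferon gamma response genes were called for 4 of 11, with 3 differences above 0 and 1 below (median -0.23). NF-κB and acute-phase genes were called for 2 of 11 tested, both below 0 (median 0.40). So for the members the many calls in liver and the few in muscle do not amount to a difference between the tissues in the main fit, and the wide errors leave room for one.

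**Figure D4:**
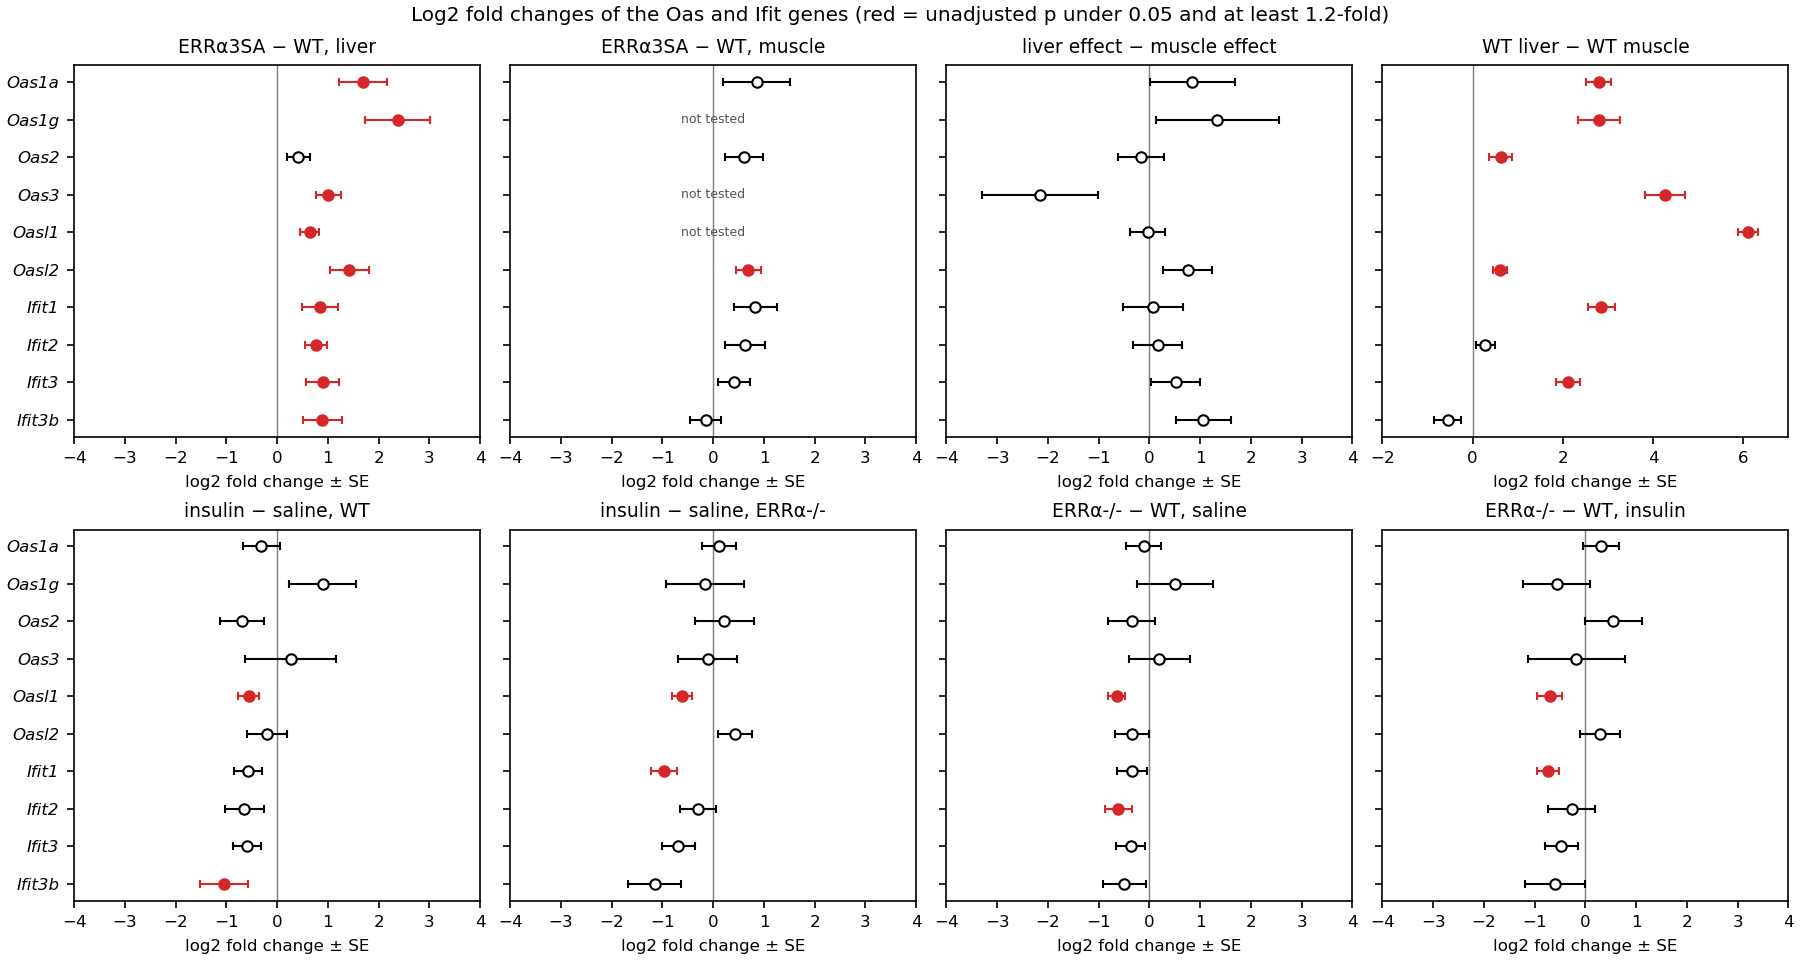
Log2 fold change and standard error of each member in the 8 comparisons shown, with called genes in red (Oas1g, Oas3 and Oasl1 have few muscle counts). Among the genotype and insulin panels the one of ERRα3SA liver has the most members called, all higher.

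The insulin experiment has 4 liver groups compared in pairs that share samples: wild-type saline livers enter both the wild-type insulin comparison and the saline comparison of genotypes, and each other group likewise enters 2. Where groups of this experiment do not overlap for a gene or a sum, the share of all genes that separate likewise was not counted. In wild-type liver Oasl1 and Ifit3b were lower after insulin, and the other Ifit genes lay lower without being called. Oasl1 fell, at -0.56 ± 0.21, and Ifit3b at -1.05 ± 0.46 (log2 fold change, 4 livers a group). The Oas genes showed no common direction.

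Oasl1 was 6.32, 6.64, 6.34 and 10.2 CPM in wild-type insulin livers 1 to 4 and 9.14, 10.3, 10.3 and 13.7 CPM in wild-type saline livers. Insulin livers 1 to 3 are below every saline liver, and insulin liver 4 is within the saline range. Ifit3b was 0.824, 0.567, 1.91 and 2.02 CPM against 1.79, 3.79, 1.76 and 3.70 CPM, where insulin livers 1 and 2 are lowest and livers 3 and 4 stand just above saline livers 1 and 3. The tests gave -0.56 ± 0.21 (unadjusted p = 0.0202, adjusted p = 0.191) for Oasl1 and -1.05 ± 0.46 (unadjusted p = 0.0449, adjusted p = 0.271) for Ifit3b.

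Ifit3 was 4.65, 3.29, 5.19 and 8.97 CPM with insulin and 8.70, 6.87, 7.70 and 9.94 CPM with saline, at -0.59 ± 0.28 (unadjusted p = 0.0585). Ifit1 was 6.83, 5.87, 8.32 and 9.30 CPM against 7.67, 7.81, 11.6 and 18.1 CPM, at -0.58 ± 0.28 (unadjusted p = 0.0617). For both, insulin liver 4 is the highest of its group and overlaps the saline livers. Ifit2 was 1.30, 1.87, 3.44 and 3.94 CPM against 4.64, 4.54, 2.29 and 5.06 CPM, at -0.64 ± 0.38 (unadjusted p = 0.117), its insulin livers 3 and 4 overlapping saline. Among the Oas genes Oas2 was at -0.69 ± 0.43 (unadjusted p = 0.138), Oas1a at -0.31 ± 0.37 (unadjusted p = 0.420), Oas1g at 0.90 ± 0.66 (unadjusted p = 0.198), Oas3 at 0.27 ± 0.89 (unadjusted p = 0.771) and Oasl2 at -0.20 ± 0.40 (unadjusted p = 0.625).

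Values of these Oas genes were small throughout. Oas1a ranged from 1.15 to 1.43 CPM with insulin and 1.2 to 2.54 CPM with saline, Oas2 from 0.596 to 1.38 and 1.04 to 1.90, and Oasl2 from 0.908 to 3.16 and 1.42 to 2.91. Oas1g ranged from 0.531 to 0.569 CPM with insulin and 0.0694 to 0.522 CPM with saline, so that every insulin liver is above every saline liver, though the gene was not called. Oas3 had 0 counts in insulin liver 2, where 3 counts would be 0.0851 CPM.

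Called members were 2 of 10, both lower, where 17.2% of 13463 genes were called and 8.91% were called lower, so the share lies near that of all genes. The members' median log2 fold change was -0.57 and that of all genes 0.00 (members -0.72 to -0.42 with 1 library left out). Ifit3b lost its call without wild-type insulin liver 1 (-0.87 at unadjusted p = 0.104) or 2 (-0.80 at unadjusted p = 0.0959), the latter the library with few detected genes, and without saline liver 2 (-0.86 at unadjusted p = 0.124) or 4 (-0.87 at unadjusted p = 0.120). Oasl1 lost its call without insulin liver 3 (-0.49 at unadjusted p = 0.0544), the library with muscle transcripts, or saline liver 4 (-0.43 at unadjusted p = 0.0765). In the other direction, 5 members were called without insulin liver 4, all lower, 4 by DESeq2, with no filter on low counts and with replicate number as a block, and 3 with all 4 groups in one fit.

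Of the other interferon-stimulated genes 5 of 22 fell with insulin and 1 rose (median -0.22), with Parp14 at -1.02 ± 0.24 lower and Bst2, a tether of budding virus, at 0.36 ± 0.13 higher. The RNA sensor Ddx58 fell, at -1.24 ± 0.16 (unadjusted p = 0.00000884, adjusted p = 0.00305), and Ifih1 at -0.53 ± 0.15 (unadjusted p = 0.00487), the 2 of 12 sensors called. Stat2 at -0.24 ± 0.16 and Irf9 at -0.16 ± 0.19 were not called, Irf7 was at -0.11 ± 0.19, and Usp18 rose by 0.74 ± 0.26 (unadjusted p = 0.0168). Interferon gamma response genes fell for 3 of 11, receptor and kinase genes for 2 of 8, and interferon regulatory and NF-κB factors for 3 of 8. Esrra rose by 0.67 ± 0.21 (unadjusted p = 0.00754).

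Cell type markers were mixed in these livers. Of the 6 stellate and fibroblast genes 2 fell (median -0.39), Lrat at -0.88 ± 0.19 (unadjusted p = 0.000783, adjusted p = 0.0339) and Col3a1 at -0.68 ± 0.29 (unadjusted p = 0.0389), and the list, led by Dcn, summed to 187, 157, 200 and 176 CPM with insulin and 168, 216, 178 and 183 CPM with saline. Of 6 endothelial genes Kdr fell, at -0.60 ± 0.22 (unadjusted p = 0.0190) (list median -0.12), with sums of 167, 130, 176 and 187 CPM and 134, 236, 197 and 194 CPM. Of 12 macrophage markers C1qb rose, at 0.55 ± 0.18 (unadjusted p = 0.00911) (list median -0.11), with sums of 390, 398, 227 and 297 CPM and 234, 458, 304 and 335 CPM. Of 3 neutrophil markers tested S100a8 rose, at 2.44 ± 1.07 (unadjusted p = 0.0432) (list median 1.44), with sums of 6.16, 2.69, 3.87 and 7.30 CPM and 1.99, 5.55, 2.42 and 3.05 CPM. Neither of the 2 T and NK markers tested nor any of 7 hepatocyte markers was called. The sums printed here overlap between treatments, and the part of these cells in the differences was not tested.

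In ERRα-/- liver Oasl1 and Ifit1 were lower after insulin. Ifit1 fell, at -0.96 ± 0.26, and Oasl1 at -0.61 ± 0.20 (log2 fold change, 3 insulin and 4 saline livers). Ifit3 and Ifit3b were lower by like amounts without being called, and the Oas genes again had no common direction.

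Ifit1 was 4.06, 5.13 and 4.56 CPM in ERRα-/- insulin livers 1, 2 and 4, and 8.82, 5.36, 12.2 and 9.27 CPM in ERRα-/- saline livers 1 to 4. All insulin livers are below all saline livers, saline liver 2 only just above them, a separation not set against that of all genes. Oasl1 was 3.72, 4.61 and 5.37 CPM against 6.46, 8.54, 6.51 and 6.36 CPM, again with no overlap and with saline liver 2 highest. The tests gave -0.96 ± 0.26 (unadjusted p = 0.00340, adjusted p = 0.0757) for Ifit1 and -0.61 ± 0.20 (unadjusted p = 0.0120, adjusted p = 0.140) for Oasl1, and DESeq2 gave Ifit1 adjusted p = 0.00975.

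Ifit3 was 4.09, 3.76 and 4.15 CPM against 6.85, 3.06, 9.47 and 6.30 CPM, at -0.69 ± 0.32 (unadjusted p = 0.0549), and Ifit3b 0.520, 0.631 and 1.49 CPM against 2.60, 1.02, 3.00 and 1.22 CPM, at -1.15 ± 0.53 (unadjusted p = 0.0514). In both, saline livers 1 and 3 are high, and saline liver 2 is below every insulin liver for Ifit3 and within their range for Ifit3b. Ifit2 was at -0.30 ± 0.35, Oasl2 at 0.43 ± 0.33, Oas1a at 0.11 ± 0.33, Oas1g at -0.16 ± 0.77, Oas2 at 0.22 ± 0.59 and Oas3 at -0.11 ± 0.59, none of them called.

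Here too 2 of 10 members were called, both lower, against 17.2% of 13684 genes called and 9.14% called lower, a share near the background. The median was -0.23 for the members and -0.02 for all genes, and the sign of the members' median depends on single libraries, at 0.06 without ERRα-/- insulin liver 2 and -0.70 without insulin liver 4. Oasl1 lost its call without ERRα-/- insulin liver 1 (-0.48 at unadjusted p = 0.0564).

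Other interferon genes fell in ERRα-/- livers given insulin as well. Of the other interferon-stimulated genes 10 of 22 fell (median -0.60), Parp14 at -0.66 ± 0.12 (unadjusted p = 0.000285, adjusted p = 0.0228), with sums of 518, 542 and 559 CPM in the insulin livers and 671, 701, 705 and 750 CPM in the saline livers, which do not overlap. Stat2 fell, at -0.40 ± 0.12 (unadjusted p = 0.00803), with Irf9 at -0.31 ± 0.15. Sensors fell for 3 of 12, Ddx58 at -0.79 ± 0.13 (unadjusted p = 0.0000953, adjusted p = 0.0148), and interferon gamma response genes for 5 of 11, the GTPase Igtp at -1.26 ± 0.17 (unadjusted p = 0.0000144, adjusted p = 0.00588). The ubiquitin-like Isg15 fell, at -0.77 ± 0.34 (unadjusted p = 0.0443). Irf7 was at 0.18 ± 0.15 and Usp18 at 0.49 ± 0.34. Whether these falls differ from those in wild-type liver is tested below.

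Of the cell type markers in these livers, the 10 of T and NK cells, led by Cd4, summed to 3.23, 2.96 and 3.01 CPM with insulin and 4.75, 2.76, 3.92 and 3.68 CPM with saline, which overlap. Of these 2 of 6 tested fell (median -0.47), Cd8a at -2.89 ± 1.22 (unadjusted p = 0.0383) and Klrb1c at -1.74 ± 0.78 (unadjusted p = 0.0498), with Cd8a at 0 counts in insulin livers 1 and 2. None of 12 macrophage markers was called, and 11 of 12 log2 fold changes were above 0 (median 0.16). They summed to 250, 293 and 376 CPM with insulin and 265, 259, 270 and 308 CPM with saline, all 12 detected in every liver. None of 5 neutrophil markers tested was called (median -0.57). The part of these cells in the falls was not tested.

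**Figure D5:**
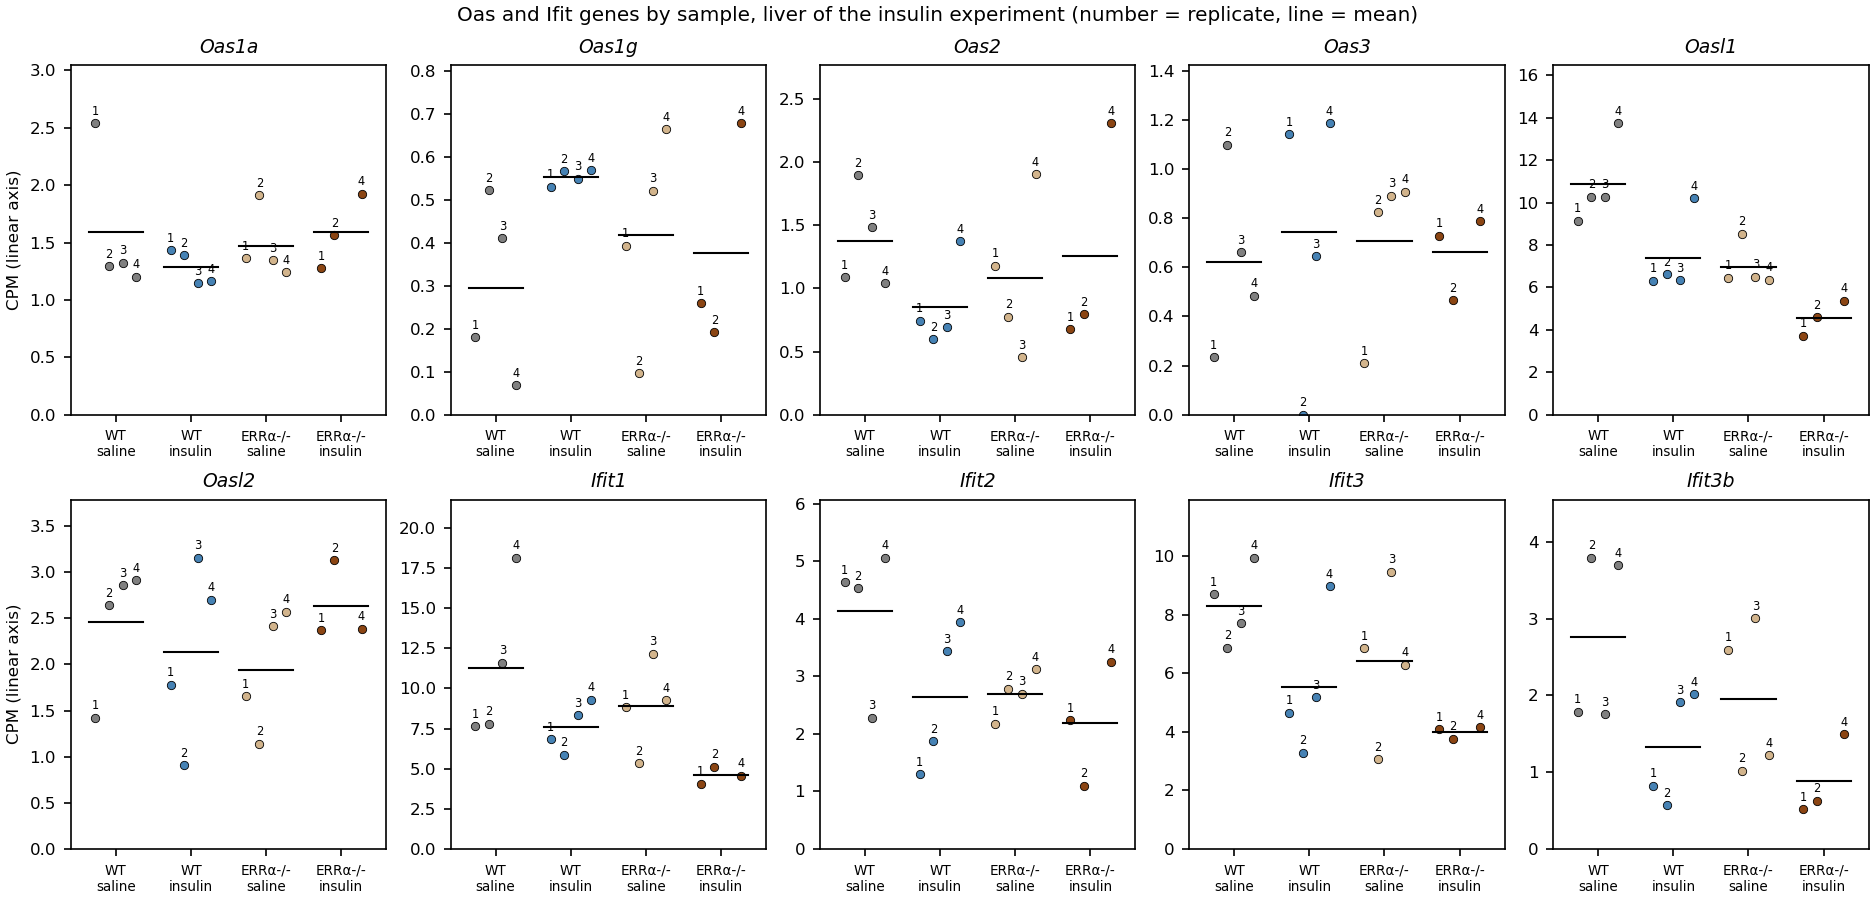
CPM of each member in every liver of the insulin experiment (linear axis, replicate numbers beside the points, lines at group means). Oasl1 steps down with insulin and with loss of ERRα, and the other Oas genes have low values.

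Oasl1 was lower in ERRα-/- than in wild-type liver under saline and under insulin. With saline Oasl1 fell, at -0.64 ± 0.17, and Ifit2 at -0.61 ± 0.27, and with insulin Oasl1 fell, at -0.70 ± 0.25, and Ifit1 at -0.74 ± 0.22 (log2 fold change of ERRα-/- against wild type). Oasl1 was thus lowest in ERRα-/- insulin livers. These comparisons reuse the groups above, so they are not independent of the insulin comparisons.

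From the Oasl1 values given above, all ERRα-/- saline livers lie below all wild-type saline livers, and all ERRα-/- insulin livers below all wild-type insulin livers. Such separation was not counted over all genes. The tests gave -0.64 ± 0.17 (unadjusted p = 0.00280, adjusted p = 0.198) with saline and -0.70 ± 0.25 (unadjusted p = 0.0174, adjusted p = 0.356) with insulin, and DESeq2 gave adjusted p = 0.0416 for the saline comparison. Ifit2 was 2.18, 2.79, 2.70 and 3.13 CPM in ERRα-/- saline livers against 4.64, 4.54, 2.29 and 5.06 CPM in wild-type saline livers, at -0.61 ± 0.27 (unadjusted p = 0.0439, adjusted p = 0.394). Wild-type saline liver 3 falls inside the ERRα-/- range and the other wild-type livers lie above it.

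Ifit1 was lower in all ERRα-/- insulin livers than in any wild-type insulin liver, at -0.74 ± 0.22 (unadjusted p = 0.00776, adjusted p = 0.284), and with saline the genotypes overlapped, at -0.34 ± 0.30 (unadjusted p = 0.277). Ifit2 with insulin was at -0.27 ± 0.47 (unadjusted p = 0.571), not called. Ifit3 was at -0.37 ± 0.28 (unadjusted p = 0.215) with saline and -0.48 ± 0.32 (unadjusted p = 0.167) with insulin, and its copy Ifit3b at -0.49 ± 0.42 (unadjusted p = 0.264) and -0.60 ± 0.60 (unadjusted p = 0.335). The Oas genes, given as saline then insulin, were at -0.11 ± 0.35 and 0.30 ± 0.36 for Oas1a, 0.51 ± 0.75 and -0.56 ± 0.66 for Oas1g, -0.35 ± 0.46 and 0.55 ± 0.57 for Oas2, 0.20 ± 0.60 and -0.18 ± 0.95 for Oas3, and -0.34 ± 0.34 and 0.29 ± 0.40 for Oasl2. None of these was called, and the standard errors are as large as most of the differences.

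With saline 2 of 10 members were called, both lower, against 11.3% of 13481 genes called and 5.30% called lower (medians -0.35 and 0.00, with -0.50 to -0.19 for the members with 1 library left out). With insulin 2 of 10 were called, both lower, against 9.99% of 13665 genes called and 5.42% called lower (medians -0.37 and -0.02). That median went to -0.08 without wild-type insulin liver 4 and -0.57 without ERRα-/- insulin liver 4. Ifit2 with saline lost its call without ERRα-/- livers 1, 2 or 3 (-0.52 at unadjusted p = 0.102, -0.63 at unadjusted p = 0.0668 and -0.61 at unadjusted p = 0.0701) or wild-type livers 1, 2 or 4 (-0.55 at unadjusted p = 0.0940, -0.56 at unadjusted p = 0.0893 and -0.50 at unadjusted p = 0.122), or with all 4 groups in one fit (-0.61 at unadjusted p = 0.114). A fit of the saline livers with replicate number as a block called 1 member, lower. Oasl1 with insulin lost it without ERRα-/- liver 1 (-0.57 at unadjusted p = 0.0757) or wild-type liver 4 (-0.51 at unadjusted p = 0.0584).

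The other interferon genes were mixed under loss of ERRα. With saline 2 of 22 other interferon-stimulated genes rose and 2 of 22 fell (median -0.05), 1 of 12 sensors rose and 3 of 12 fell, Stat2 rose by 0.27 ± 0.12 (unadjusted p = 0.0485), and Irf9 was at -0.15 ± 0.15. Irf7, whose translation Oasl1 restrains, fell, at -0.55 ± 0.17 (unadjusted p = 0.00659). With insulin 1 of 22 rose and 5 of 22 fell (median -0.33), Ifi27 rising by 1.09 ± 0.13 (unadjusted p = 0.00000589, adjusted p = 0.0161). Usp18 fell, at -0.75 ± 0.24 (unadjusted p = 0.0103), Isg15 at -0.84 ± 0.35 (unadjusted p = 0.0366), and Irf7 was at -0.27 ± 0.18. Interferon gamma response genes fell for 2 of 11 with saline (median 0.06) and for 2 of 11 with insulin (median -0.59). NF-κB and acute-phase genes fell for 0 of 10 tested with saline (median -0.31) and for 1 of 10 with insulin (median -1.20).

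Macrophage markers fell for 3 of 12 genes with saline (Adgre1, Csf1r and Vsig4), and the list summed to 265, 259, 270 and 308 CPM in ERRα-/- saline livers against 234, 458, 304 and 335 CPM in wild-type saline livers, Clec4f or Cd5l the most abundant. With insulin the list rose for 1 of 12 and fell for none (median -0.15). Hepatocyte markers were called higher in ERRα-/- liver for 2 of 7 genes with insulin (median 0.23) and for 0 of 7 with saline (median 0.05). Endothelial genes were higher for 1 of 6 with insulin and lower for 1 of 6 with saline. Stellate and fibroblast genes were lower for 1 of 6 with saline and called for 0 of 6 with insulin. Muscle markers with insulin were lower for 1 of 5 tested (median -2.77), in a comparison that holds wild-type insulin liver 3, the library with muscle transcripts. Of the 2 T and NK markers tested Cd4 rose in ERRα-/- liver, at 1.25 ± 0.47 (unadjusted p = 0.0221) with saline and 1.75 ± 0.62 (unadjusted p = 0.0171) with insulin. The part of these cells in the Oasl1 difference was not tested. Esrra fell, at -5.20 ± 0.24 with saline and -6.86 ± 0.37 with insulin, matching the labels.

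Whether insulin acts differently on the members in the absence of ERRα was tested in one fit of the 4 groups, and for no member was a difference called. The differences (wild-type insulin effect minus ERRα-/- insulin effect, log2) ran from -0.91 ± 0.73 (unadjusted p = 0.229) for Oas2 to 1.06 ± 1.05 (unadjusted p = 0.329) for Oas1g. Oasl1 was at 0.05 ± 0.29 (unadjusted p = 0.862), and Ifit1 at 0.38 ± 0.40 (unadjusted p = 0.359). Ifit2 was at -0.35 ± 0.54, Ifit3 at 0.10 ± 0.45, Ifit3b at 0.11 ± 0.72, Oas1a at -0.42 ± 0.46, Oas3 at 0.37 ± 1.19 and Oasl2 at -0.63 ± 0.54.

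By edgeR 0 of 10 members were called, as by DESeq2, against 8.79% of 14670 genes (medians 0.07 and 0.02, with -0.20 to 0.19 for the members with 1 library left out). Of 22 other interferon-stimulated genes 2 were called, Tor3a and Bst2, and none of the sensor, feedback or interferon gamma response genes. Esrra was called at 1.65 ± 0.42 (unadjusted p = 0.00114), where the ERRα-/- side rests on the low residual Esrra values given above.

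Within groups the Ifit genes vary together, and pairs with an Oas gene are mixed. Over all 31 samples, after the mean of each of the 8 groups was subtracted from log2 CPM, the 6 pairs of Ifit genes correlated at r = 0.52 to 0.85 (median 0.60), the highest being Ifit1 with Ifit3, genes that share no transcript window. The 15 Oas pairs ran from -0.08 to 0.63 (median 0.35) and the 24 pairs of an Oas with an Ifit gene from -0.20 to 0.55 (median 0.21), with Oas1a below 0 with all 4 Ifit genes. No test compares these sets, and several Oas genes have few counts. Part of the Ifit3 with Ifit3b and Oas1a with Oas1g values can be reads the copies share, and this was not tested.

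The members were also set against 12782 other protein-coding genes tested in both experiments. Those closest to the mean of the members by the same measure (n = 31 samples) were Shisa5 at r = 0.82, Chaf1b at 0.73, Cenpf at 0.72, Ifi213 at 0.69 and Cd200r1 at 0.67, beside a median of 0.02 over these genes. Irf7 had rank 10 at r = 0.65. These are descriptions of likeness only. The samples furthest from their group mean by the mean of the members are wild-type insulin livers 2 and 4 (log2 difference -0.70 and 0.56), ERRα3SA muscle 4 (0.63) and ERRα3SA livers 1 and 4 (0.52 and -0.50).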

How the data were processed

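RNA-seq counts per gene in 31 mouse samples were used as deposited: the authors aligned reads to mm10 with STAR and summed raw counts per gene, and strand setting and read length are not given. Library totals were 35871419 to 48317108 counts (insulin experiment) and 20481405 to 33412022 counts (ERRα3SA experiment). Low counts (some members under 1 CPM) are imprecise. Each comparison was fitted with edgeR 4.0.16 in R 4.3.3 (filterByExpr, TMM, quasi-likelihood F test) on all genes of the groups compared. Called means unadjusted p below 0.05 and fold change of at least 1.2. Adjusted p is Benjamini-Hochberg over all genes. CPM use TMM over all samples of an experiment, and RPKM divide by gene length. Alternatives were DESeq2 1.42.0, RLE factors, no filter, all 4 groups in the fit, a replicate block and each library left out. Code was tested on simulated data. The members and gene lists were chosen with earlier results of these data known. Named genes are all members, the 3 lowest p-values among genes called in a list in ERRα3SA liver, and fixed pathway genes, of which some genes and lists are not reported here. Promoters are from RefSeq.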

Additional observations from a re-analysis of the deposited data

Results flagged for a closer look

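A sample was flagged where its gap to the nearest of the other 3, divided by the range of the group, was above Dixon's 95% critical value. Of 70 groups tested 5 were flagged, where chance alone flags about 3.5. Oasl1 holds 3 of these flags: wild-type liver 3 was 28.7 CPM (others 18.4 to 19.9), wild-type insulin liver 4 was 10.2 CPM (others 6.32 to 6.64) and ERRα-/- saline liver 2 was 8.54 CPM (others 6.36 to 6.51), each the highest of its group. Oas1a in wild-type saline liver 1 was 2.54 CPM (others 1.2 to 1.33). Oas3 in ERRα-/- saline liver 1 was 0.210 CPM, below the others at 0.824 to 0.909. In the main edgeR fits no difference of effects between tissues or between genotypes was called for a member. Between tissues DESeq2 called Oas3, a fit with no filter Oas3 and Ifit3b, and a fit with the block Ifit3b.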

How the results depend on the processing

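Over 40 pairs of a gene and a comparison, 528 alternative values kept direction and side of the threshold in 444. They were weaker in 44, stronger in 38 and turned direction in 2, and the causes were not tested. These pairs are all members tested in ERRα3SA liver and muscle and, elsewhere, only members with unadjusted p below 0.1 in the main edgeR fit. Pairs with a larger p in the other comparisons are not in these counts. In ERRα3SA liver 9 members called became 8 with all groups in the fit and 6 to 9 with a library left out, and between wild-type tissues 8 became 6 and 7 to 9, and 9 with no filter and with the block, where Ifit3b was called lower in liver. In ERRα3SA muscle 1 became 3 with no filter, 0 with the block and 0 to 4 left out, and the difference between tissues, 0, became 1 with DESeq2, 2 with no filter, 1 with the block and 0 to 2 left out. With insulin in wild type 2 became 4 with DESeq2, with no filter and with the block, 3 with all groups and 0 to 5 left out, and in ERRα-/- 4 with DESeq2 and with no filter and 1 to 4 left out. Between genotypes 2 became 1 with all groups and with the block and 1 to 2 left out with saline, and 1 to 3 left out with insulin. Ifit3b in ERRα3SA muscle turned direction when left out (-0.361 to 0.0677), as did the median of the members with insulin in ERRα-/- (-0.70 to 0.0564) and for genotype by insulin (-0.20 to 0.19, and -0.0755 with the block). Replicate numbers do not pair samples in the labels, and samples of the same number correlated at -0.18 to 0.24 over 8 comparisons, with at most 2 of 4 pairs over 0.1. Depth limits Oas1g, Oas3 and Oasl1 in muscle, which did not pass the filter on low counts, and 3 or 4 samples a group limit every test.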
